A study of Mus musculus with 24 samples.

Results

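The genes described here encode the first steps of insulin signalling: the receptor Insr, the docking proteins Irs1 and Irs2, the regulatory subunit Pik3r1 and the inhibitor Pik3ip1 of phosphoinositide 3-kinase (PI3K), the kinases Akt1 and Akt2, and the brakes on the receptor Grb10, Grb14 and Ptpn1. They were chosen by symbol, 10 in all, through the platform annotation. Of the 10, 9 had a probe set of their own, 1 each, among 14754 genes, and Irs1 was not analysed here. A gene was tested when its log2 intensity was above 4 on at least 6 arrays, which 7 of the 9 passed, as did 5793 genes in all. Insr and Irs2 were above 4 on 0 of 24 arrays.

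Insulin binds Insr, a tyrosine kinase, which phosphorylates the Irs proteins. These recruit PI3K, whose lipid product brings Akt to the membrane, and active Akt drives the uptake of glucose and the synthesis of glycogen and protein. In skeletal muscle, the main site of glucose disposal after a meal, Akt2 is the isoform best known for the control of glucose uptake.

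The tissue was quadriceps, a thigh muscle, of male mice of the strain C57BL/6J (labelled C56BL/6J on the samples), 1 mouse per array and 6 mice in each of 4 groups. After 2 weeks on a standard diet, all mice had a low fat run-in of 3 weeks from the age of 9 weeks and then, assigned at random per the labels, were fed diets based on palm oil, with fat giving 10% of the energy (low fat) or 45% (high fat). The groups were low fat day 3 and high fat day 3, both at 12 weeks of age, and low fat day 28 and high fat day 28, both at 16 weeks of age, so that time on the diet and age cannot be told apart. Mouse numbers in the labels fell in separate ranges for the diets, and a difference between 2 sets of animals cannot be told apart from the diet either.

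The arrays were Affymetrix mouse expression arrays, whose intensities are GCRMA values. Array medians ran from 6.56 to 6.90 on the linear scale. All 10 skeletal muscle markers, among them the creatine kinase Ckm and the fast myosin Myh4, were tested, and their mean log2 level lay between 13.02 and 13.16 on every array. Marker lists of fibre and other cell types stood at other levels between the diets. The mean log2 level of 11 slow fibre markers (of 12 listed) was 5.92 ± 1.32 (SD, n = 6) on low fat and 9.49 ± 0.82 on high fat at day 3, and 6.17 ± 1.02 and 9.29 ± 0.37 at day 28. Their summed level (log2) ran from 9.11 to 11.66 on low fat and 12.46 to 14.67 on high fat at day 3, and from 10.36 to 11.76 and 12.57 to 13.44 at day 28. Adipocyte markers (9 of 12 listed, 8 tested) had means of 8.24 ± 0.93 and 7.12 ± 0.96 at day 3, and 9.15 ± 0.49 and 6.49 ± 0.36 at day 28, in the same order. Their summed level ran from 12.98 to 14.04 and 13.23 to 14.01 at day 3, and from 13.53 to 14.36 and 13.13 to 13.37 at day 28. Car3 of this list was higher on high fat, with group means of 12.20 and 12.59 at day 3 and 12.26 and 12.54 at day 28. The other tested adipocyte markers were lower on high fat at both days. The summed level is weighted to the brightest of them, Car3 and Fabp4. Endothelial markers (11 of 11 listed, 9 tested) had means from 5.26 to 5.67 on low fat and 5.70 to 5.91 on high fat at day 3, which do not overlap, and from 5.43 to 5.69 and 5.62 to 6.03 at day 28. Macrophage markers (12 of 12, 9 tested) had means from 5.50 to 6.64 and 5.28 to 6.06 at day 3, and from 5.83 to 6.93 and 5.07 to 5.81 at day 28, where they do not overlap. Smooth muscle and pericyte markers (7 of 8, 5 tested) had group means of 5.05 and 5.53 at day 3 and 5.16 and 5.43 at day 28, and fibroblast and tendon markers (9 of 9, all tested) 8.69 and 9.24, then 8.61 and 8.69. Of nerve markers 3 of 7 had a probe set and 0 were tested. The part of these cell types in the results below was not tested. Fits with a term for slow fibre or adipocyte markers are given below as values. No marker of the slow fibre and adipocyte lists was at 0. The adipocyte hormone Lep did not exceed 3.66 on any array. In whole muscle, fewer cells of a type and less RNA per cell cannot be told apart.

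After 3 days, Akt2 and Pik3ip1 were lower and Grb14 was higher on high fat, each in all 6 mice compared with every low fat mouse. Between the separate mice of the 2 diets, Akt2 was lower by 0.44 on the log2 scale, Pik3ip1 lower by 0.90, and Grb14 higher by 0.88. After 28 days none of the 7 was called. The diet effects on Akt2 and Pik3ip1 differed between the days by a test of the difference itself, at adjusted p of 0.0286 and 0.0249 by limma. Both of these calls were lost with no filter on low values, with the adipocyte marker mean as a term and without high fat day 28 replicate 2.

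By limma with Benjamini-Hochberg adjustment over 5793 genes (called at adjusted p under 0.05), 3 of 7 tested members were called at day 3, against 14.9% of all genes. One was higher (7.99% of all genes were) and 2 were lower (6.87%). The groups did not overlap for those same 3, against 6.09% of all genes. At day 28, 0 of 7 were called by limma, against 12.5% of all genes. Grb10 and Grb14 were at an unadjusted p under 0.05, where they ranked 817 and 1047 of 5793 genes by limma p. The difference between the day effects called 2 of 7, both positive, against 1.38% of all genes in either direction and 0.673% in the positive one. Median log2 changes of the 7 members were -0.17 at day 3 and -0.05 at day 28, against -0.01 and 0.01 over all genes tested. With 7 members, a single gene is 1 in 7 of the count, and the members were chosen with earlier results of these arrays known. Quantile normalization moved the share of higher genes among all genes called from 42.7% to 52.8% at day 28 and from 48.8% to 59.2% for the difference between days.

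**Figure D1:**
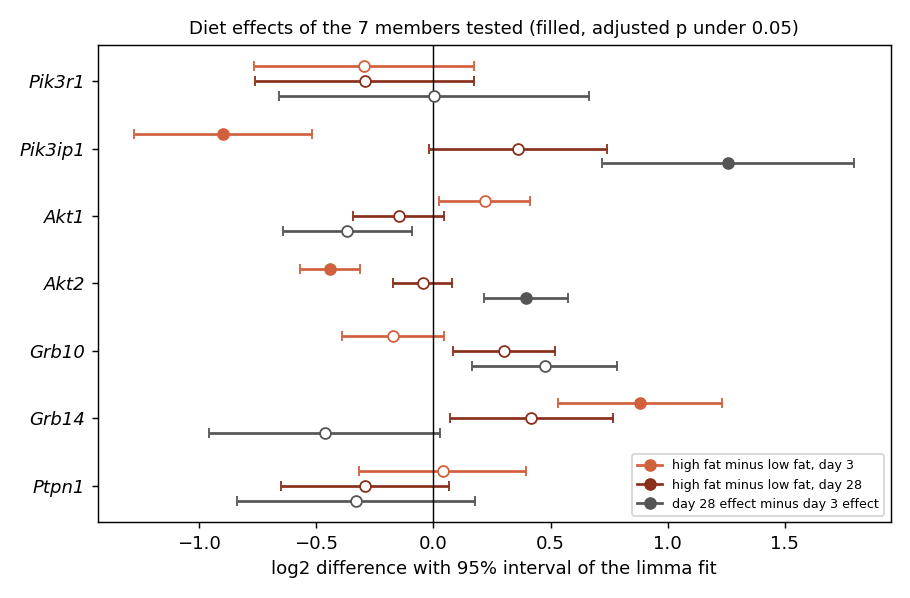
Log2 differences of the 7 tested members (points) with 95% intervals of the limma fit (bars), for the diet effect (high fat minus low fat) of each day and for the day 28 effect minus the day 3 effect; filled points passed adjusted p under 0.05. Pik3ip1 and Akt2 sit left of 0 at day 3 and have filled positive differences between days, and Grb14 sits right of 0 at both days.

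Upstream sequences are shown for the 3 members that differed at day 3, since Akt2 and Pik3ip1 were both lower on high fat and Grb14 was higher. Each run is the 250 bases before the outermost start in the RefSeq promoter table (build GRCm38.p6), 5′ to 3′ on the gene's strand, which is chr11:3330481-3330730 (plus) for Pik3ip1, chr7:27591302-27591551 (plus) for Akt2, and chr2:65022767-65023016 (minus) for Grb14. Akt2 had 4 starts there, of which only the outermost window was read, while Pik3ip1 and Grb14 had 1 each. The array's probe sets are of a build not given in the sources used here. Capitals mark the GC box GGGCGG on either strand.
Pik3ip1: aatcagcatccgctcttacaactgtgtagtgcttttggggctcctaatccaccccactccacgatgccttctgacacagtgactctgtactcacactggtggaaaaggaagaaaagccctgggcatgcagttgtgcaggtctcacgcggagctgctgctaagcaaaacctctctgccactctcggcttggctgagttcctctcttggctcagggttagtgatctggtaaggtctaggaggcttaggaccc
Akt2: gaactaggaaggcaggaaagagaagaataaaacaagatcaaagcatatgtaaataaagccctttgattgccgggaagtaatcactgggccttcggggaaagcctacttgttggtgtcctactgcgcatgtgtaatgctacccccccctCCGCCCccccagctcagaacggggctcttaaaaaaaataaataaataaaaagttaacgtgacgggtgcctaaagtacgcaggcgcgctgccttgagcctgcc
Grb14: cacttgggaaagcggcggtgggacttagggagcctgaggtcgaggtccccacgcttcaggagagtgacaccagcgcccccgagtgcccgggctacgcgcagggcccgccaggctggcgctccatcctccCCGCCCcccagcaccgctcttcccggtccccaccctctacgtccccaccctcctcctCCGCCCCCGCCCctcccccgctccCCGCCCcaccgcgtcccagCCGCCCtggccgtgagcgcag

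The windows differed in composition. GC content was 53.6% for Pik3ip1, 48.8% for Akt2 and 75.2% for Grb14, against a median of 52.4% over 32851 promoter windows of the same length. Grb14 held 5 GC boxes, Akt2 held 1 and Pik3ip1 held 0, and 32.7% of all windows held at least 1. Neither the FoxO site TGTTTAC (in 3.17% of all windows, both strands) nor the glucocorticoid half-site TGTTCT (16.1%) nor the box CCAAT (33.8%) was in these 3 windows. The E-box CANNTG, left in lower case, was found 2 times each for Pik3ip1 and Akt2 and 1 time for Grb14, and 66.2% of all windows held it. No E-box overlapped a GC box here. These matches describe letters in a window and no binding was measured.

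The Insr probe set read at the floor of the array. Its log2 levels ran from 1.13 to 1.57 (median 1.31) on low fat and 1.11 to 1.42 (median 1.19) on high fat at day 3, and from 1.06 to 1.31 (median 1.20) and 1.23 to 1.56 (median 1.37) at day 28. Genes of liver and pancreatic islets, which muscle should lack, had medians over all arrays of 1.55 for Ins2, 1.70 for Ttr, 1.84 for Apoa1 and 2.67 for Alb, so the Insr signal was no higher than the range of genes expected to be silent. Ordered by mean, each neighbouring pair of groups shared part of its range.

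Irs2, the docking protein whose transcription is known to fall with insulin, was likewise dim. It ran from 1.83 to 2.94 (median 2.42) on low fat and 1.74 to 2.62 (median 2.25) on high fat at day 3, and from 1.78 to 2.96 (median 2.08) and 2.07 to 2.84 (median 2.41) at day 28. All 4 ranges overlapped. Exact permutation tests over the 12 arrays of a day (two-sided, 4 tests for Insr and Irs2 together) gave high fat minus low fat differences of -0.09 (exact p = 0.297) and 0.18 (exact p = 0.0130) for Insr at days 3 and 28. For Irs2 they were -0.18 (exact p = 0.366) and 0.22 (exact p = 0.346). The smallest adjusted value, for Insr at day 28, was an exact adjusted p = 0.0519, and at this signal the arrays cannot show how the receptor's transcript behaved.

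Pik3r1, which encodes p85alpha and its shorter forms, stood a little above the filter. Its log2 level ran from 4.75 to 5.45 (median 5.14) on low fat and 4.54 to 5.01 (median 4.81) on high fat at day 3, and from 4.49 to 5.78 (median 5.07) and 3.68 to 5.38 (median 4.80) at day 28. The diets overlapped at both days, and the lowest array was 1 high fat day 28 mouse, replicate 6, the only one below the filter. The diet differences were -0.30 ± 0.23 (log2, SE; 95% interval -0.77 to 0.17, limma adjusted p = 0.404) and -0.29 ± 0.23 (-0.76 to 0.17, limma adjusted p = 0.455), and the difference between them was 0.00 ± 0.32 (limma adjusted p = 0.997).

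Pik3ip1 is a membrane protein that binds the catalytic subunit of PI3K and lowers its activity. At day 3 its log2 level ran from 8.08 to 8.53 (median 8.41) on low fat and from 6.94 to 7.80 (median 7.52) on high fat. By day 28 the range was 6.69 to 7.97 (median 7.75) on low fat and 7.45 to 8.26 (median 7.92) on high fat. The low fat day 3 mice formed the highest group and overlapped neither the high fat mice of that day nor the low fat mice of day 28. Ordered by mean, the groups were low fat day 3 (8.37), high fat day 28 (7.89), low fat day 28 (7.53) and high fat day 3 (7.47), and each neighbouring pair shared part of its range.

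The day 3 fall of Pik3ip1 was -0.90 ± 0.18 (log2, SE, n = 6 per group, limma adjusted p = 0.00207), so that the level fell by 46.3%. At day 28 the difference was 0.36 ± 0.18 (95% interval -0.02 to 0.74, limma adjusted p = 0.224). The day 28 effect minus the day 3 effect was 1.26 ± 0.26 (limma adjusted p = 0.0249), which ranked 16 of 5793 genes by p. On low fat, day 28 minus day 3 was -0.84 ± 0.18 (limma adjusted p = 0.0485), and on high fat it was 0.42 ± 0.18 (limma adjusted p = 0.286). The low fat change sat at the threshold and was not called in 20 of 24 fits that left out 1 array, with adjusted p up to 0.132 without low fat day 28 replicate 5, where the change was -0.67. The difference between days was not called without high fat day 28 replicate 2 (1.19, limma adjusted p = 0.0502).

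Of the Akt kinases, Akt2 had the narrowest spread of the members that differed. At day 3 its log2 level ran from 8.21 to 8.47 (median 8.34) on low fat and from 7.78 to 8.06 (median 7.85) on high fat. After 28 days the log2 level ran from 8.03 to 8.19 (median 8.14) and from 7.90 to 8.25 (median 8.09). The low fat mice of day 3 were above every mouse of high fat day 3 and of low fat day 28, while the diets overlapped at day 28. In order of the means, low fat day 3 (8.33) and low fat day 28 (8.13) were narrowly apart, with the nearest mice at 8.205 and 8.193. Low fat day 28, high fat day 28 (8.08) and high fat day 3 (7.89) each shared part of the range of the next. Low fat day 3 also shared part of the range of high fat day 28.

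The Akt2 difference at day 3 was -0.44 ± 0.06 (log2, SE, limma adjusted p = 5.01e-05), so that the level on high fat was 26.4% lower, and the difference ranked 32 of 5793 genes by p. At day 28 it was -0.05 ± 0.06 (95% interval -0.17 to 0.08, limma adjusted p = 0.697). The difference between the days was 0.40 ± 0.09 (limma adjusted p = 0.0286). It was made of 2 shifts of like size, -0.20 ± 0.06 from day 3 to day 28 on low fat (limma adjusted p = 0.121) and 0.19 ± 0.06 on high fat (limma adjusted p = 0.152), neither called by itself. The difference between days missed the threshold without high fat day 3 replicate 1 (0.37, limma adjusted p = 0.0515), without low fat day 28 replicate 5 (0.38, limma adjusted p = 0.0570) and without high fat day 28 replicate 2 (0.36, limma adjusted p = 0.0585).

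Akt1, the more widely expressed isoform and the one best known for growth, ran from 5.68 to 6.12 (median 5.89) on low fat and from 5.91 to 6.32 (median 6.11) on high fat at day 3. In the day 28 mice it ran from 5.87 to 6.05 (median 6.02) and from 5.44 to 6.13 (median 5.82). The diets overlapped at both days. Its differences were 0.22 ± 0.09 (log2, SE; 95% interval 0.02 to 0.41, limma adjusted p = 0.119) at day 3 and -0.15 ± 0.09 (-0.34 to 0.05, limma adjusted p = 0.352) at day 28, with -0.37 ± 0.13 (limma adjusted p = 0.143) between the days. Whether the diet moved the isoforms unequally was tested within arrays, a test added after the data were seen. The log2 difference Akt2 minus Akt1 was 2.43 ± 0.16 (SD, n = 6) on low fat and 1.77 ± 0.10 on high fat at day 3, a change of -0.66 (exact permutation p = 0.00216, two-sided, the smallest that 924 splits can give; exact adjusted p = 0.00433 over 4 tests). At day 28 it was 0.10 (exact permutation p = 0.281). Akt2 was already called at day 3 on these arrays, so the day 3 value is not separate evidence.

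**Figure D2:**
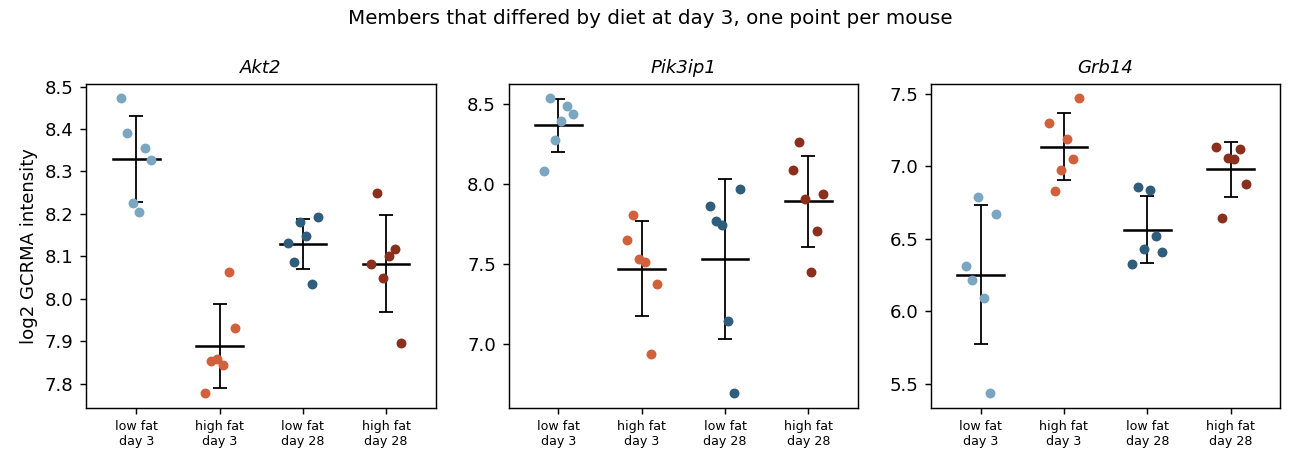
Log2 GCRMA intensity of Akt2, Pik3ip1 and Grb14 by diet and day, 1 point per mouse, with the mean (line) and SD (bar) of 6 mice. At day 3 the diets do not overlap for any of the 3, with Akt2 at 8.21 or above on low fat and 8.06 or below on high fat, and at day 28 they overlap for all 3.

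Grb14 is an adaptor that binds the active insulin receptor and inhibits its kinase. At day 3 its log2 level ran from 5.43 to 6.79 (median 6.26) on low fat and from 6.83 to 7.47 (median 7.12) on high fat. At day 28 it ran from 6.32 to 6.86 (median 6.47) and from 6.64 to 7.13 (median 7.05), and 5 of 6 high fat mice were above every low fat mouse. The order of the means was high fat day 3 (7.13), high fat day 28 (6.98), low fat day 28 (6.56) and low fat day 3 (6.25), with overlap between each neighbouring pair. High fat minus low fat was 0.88 ± 0.17 (log2, SE, limma adjusted p = 0.00118), a 1.84-fold level, at day 3. At day 28 it was 0.42 ± 0.17 (95% interval 0.07 to 0.77, limma adjusted p = 0.117), and it was called there when only the arrays of that day were fitted (limma adjusted p = 0.0294) or low fat day 3 replicate 5 was left out (limma adjusted p = 0.0372). Its sign turned when the fit held a term for slow fibre markers, to -0.27 ± 0.21 (limma adjusted p = 0.827). The difference between the days was -0.47 ± 0.24 and was not called (limma adjusted p = 0.294), so the effects are not shown to differ.

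Grb10, the relative of Grb14 that also binds the receptor, ran from 4.65 to 5.25 (median 5.13) on low fat and 4.72 to 4.999 (median 4.90) on high fat at day 3. Among day 28 mice it ran from 4.35 to 4.85 (median 4.601) and from 4.67 to 5.20 (median 4.89). The diets overlapped at both days, and the low fat day 28 group had the lowest mean. The diet differences were -0.17 ± 0.11 (log2, SE; 95% interval -0.39 to 0.04, limma adjusted p = 0.282) and 0.30 ± 0.11 (0.08 to 0.52, limma adjusted p = 0.0643), with 0.47 ± 0.15 between the days (limma adjusted p = 0.0936). The last 2 were called without low fat day 3 replicate 5, at adjusted p = 0.0342 and 0.0393 by limma. The day 28 difference was also called without low fat day 28 replicate 1 (limma adjusted p = 0.0437), low fat day 28 replicate 3 (0.0348) or high fat day 28 replicate 4 (0.0395). On low fat, day 28 minus day 3 was -0.43 ± 0.11 (limma adjusted p = 0.0654), called without low fat day 3 replicate 5 (-0.51, limma adjusted p = 0.0261) or low fat day 28 replicate 1 (-0.47, limma adjusted p = 0.0409). Within arrays, Grb14 minus Grb10 was higher on high fat by 1.06 at day 3 (exact permutation p = 0.00216, the smallest the splits allow, exact adjusted p = 0.00433) and by 0.12 at day 28 (exact permutation p = 0.5). This test too was added after the data were seen. Grb14 was already called at day 3 on these arrays, so the day 3 value is not separate evidence.

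Ptpn1 encodes PTP1B, a phosphatase that removes phosphate from the active receptor. It ran from 5.78 to 7.01 (median 6.61) on low fat and from 6.34 to 6.73 (median 6.66) on high fat at day 3, and from 6.43 to 7.12 (median 6.61) and 5.87 to 6.64 (median 6.52) at day 28. The ranges overlapped at both days, and the low fat groups held the highest arrays. Its differences were 0.04 ± 0.17 (log2, SE; 95% interval -0.32 to 0.40, limma adjusted p = 0.907) and -0.29 ± 0.17 (-0.65 to 0.07, limma adjusted p = 0.314), with -0.33 ± 0.24 between the days (limma adjusted p = 0.489).

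**Figure D3:**
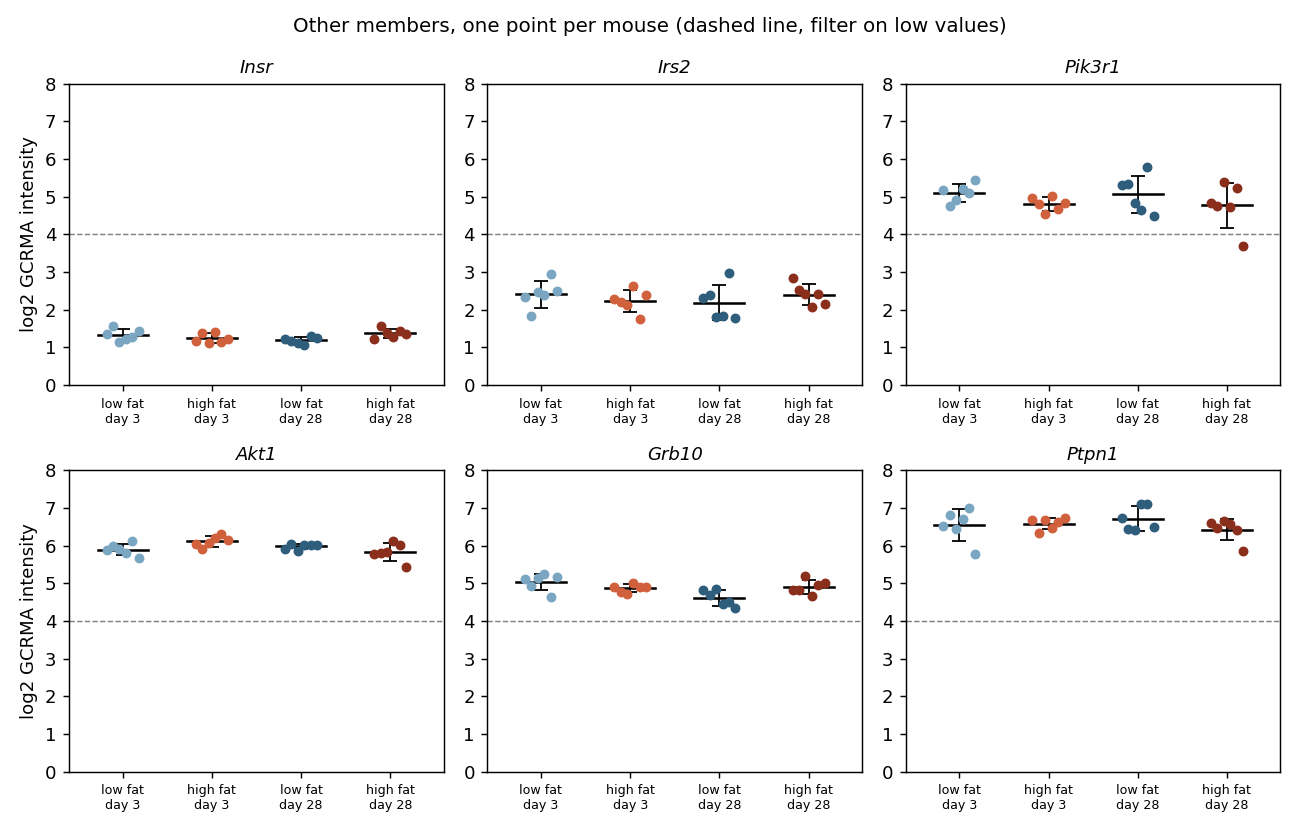
Log2 GCRMA intensity of the 6 members with no diet difference called, 1 point per mouse, with the mean (line) and SD (bar) of 6 mice; the dashed line is the filter at log2 4. Insr stays at or below 1.57 and Irs2 at or below 2.96 on every array, and the diets overlap at both days in all 6 panels.

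From day 3 to day 28 on low fat, limma called 1 of 7 members, Pik3ip1, which was lower, against 0.345% of all genes in either direction and 0.173% in that one. Both Pik3ip1 and Akt2 had low fat groups that did not overlap between the days, against 1.31% of all genes. On high fat limma called 0 of 7, against 0.552% of all genes. The share of all genes at an unadjusted p under 0.05 was not counted, and 3 of the 7 members were under it. Those 3 were Pik3ip1 (0.42), Akt2 (0.19) and Akt1 (-0.28 ± 0.09, limma adjusted p = 0.168), in log2 units.

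The 3 members called at day 3 were set against the slow fibre marker mean within each diet, and each relation was tested by itself, not against those of the other genes. Over the 12 low fat mice, Grb14 rose with the slow fibre marker mean (Pearson r = 0.743, permutation p = 0.00158, adjusted 0.00948 over 6 relations; Spearman rho = 0.804, permutation p = 0.00238, adjusted 0.0143; r = 0.641 without the 2 mice farthest from the median). At day 3 alone r was 0.902 and at day 28 alone 0.474, each over 6 low fat mice. Over the 12 high fat mice r was 0.424 (permutation p = 0.167, adjusted 0.50; rho = 0.427, permutation p = 0.172, adjusted 0.515), and 0.110 without the 2 farthest mice. Pik3ip1 had r = -0.141 on low fat (permutation p = 0.654; rho = -0.343, permutation p = 0.275) and 0.112 on high fat (permutation p = 0.741; rho = 0.238, permutation p = 0.459). Akt2 had r = -0.250 (permutation p = 0.436; rho = -0.245, permutation p = 0.446) and -0.313 (permutation p = 0.326; rho = -0.084, permutation p = 0.799). After adjustment over the 6 relations, none of these 4 was under 0.05, the smallest being 0.550. These relations were chosen after the data were seen.

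When the limma fit took the slow fibre mean as a term, the day 3 difference was 0.10 ± 0.23 for Grb14 (limma adjusted p = 0.904), -0.93 ± 0.33 for Pik3ip1 (0.262) and -0.35 ± 0.11 for Akt2 (0.180), and none was called. That term parts the diets (their marker means do not overlap), it widened the standard errors of this comparison by a median of 1.78 times, and it left 17 genes of 5793 called. With the adipocyte mean as a term, the count at day 3 stayed at 3, and for the difference between days limma called 0 of 5793 genes, with Pik3ip1 at 1.09 (adjusted p = 0.174) and Akt2 at 0.43 (adjusted p = 0.111). The part of either marker list in these differences was not tested.

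**Figure D4:**
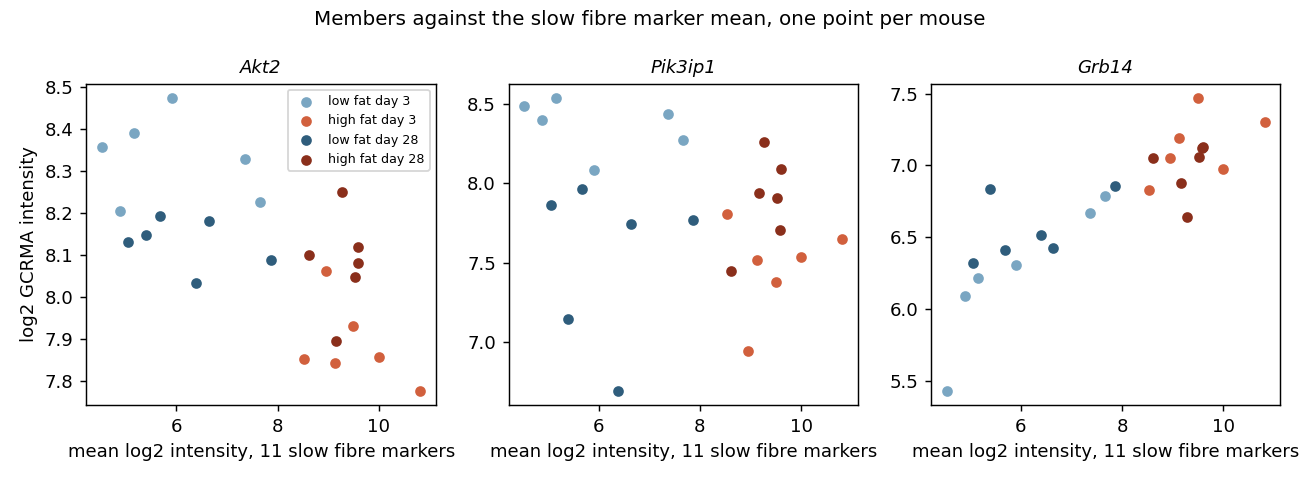
Log2 GCRMA intensity of Akt2, Pik3ip1 and Grb14 against the mean log2 level of 11 slow fibre markers, 1 point per mouse, coloured by diet and day. Low fat mice lie between 4.53 and 7.86 on the horizontal axis and high fat mice between 8.53 and 10.82, and among the low fat mice Grb14 rises from left to right (r = 0.743, n = 12).

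By likeness over the 24 arrays (Pearson r, a description; the arrays share the 4 groups), the genes closest to Grb14 were Fhl1 (0.909), Myh2, the fast oxidative IIa myosin (0.899), and Fxyd6 (0.896). With the group means taken out, on the arrays that chose them, they had r of 0.785, 0.785 and 0.802. Closest to Pik3ip1 were Hbp1 (0.866), Ube2g1 (0.841) and Pnpla7 (0.820), with 0.730, 0.724 and 0.579 after the group means were taken out. Closest to Akt2 were Exoc7 (0.843), Tmem161a (0.826) and Inmt (0.805), with 0.412, 0.579 and 0.413. Hbp1 had group means of 8.05 and 7.70 at day 3 and 7.77 and 7.79 at day 28 (log2, low fat then high fat), in which the low fat day 3 group stood highest, as for Pik3ip1. Since Hbp1 was chosen for its likeness to Pik3ip1 on these same arrays, that shared feature adds nothing further. Exoc7, a subunit of the exocyst that tethers vesicles to the membrane, had 9.22 and 8.43 at day 3 and 8.91 and 8.56 at day 28. Between members, Akt2 and Pik3ip1 had r = 0.557 over all arrays and -0.022 with the group means taken out.

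The wider pathway was read from 75 further genes in 4 lists, of which 65 had a probe set and 32 were tested. At day 3 limma called 4 of 32 (12.5%), all lower on high fat, against the 14.9% of all genes given above. The 32 had a median log2 change of -0.12, against -0.01 over all genes tested. Of the 32, 26 were negative, and the share of negative genes over all genes tested was not counted. At day 28 limma called 5 of 32 (15.6%, against 12.5% of all genes), 3 higher and 2 lower, with a median of 0.03. For the difference between days it called 1 of 32 (3.12%, against 1.38% of all genes). In both time comparisons limma called 0 of 32, against 0.345% of all genes on low fat and 0.552% on high fat. At an unadjusted p under 0.05 there were 8 on low fat and 5 on high fat. The share of all genes at that unadjusted threshold was not counted.

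Of 21 Akt substrates and genes of the mTOR arm, 10 were tested and 3 were called lower on high fat at day 3 (6.87% of all genes tested were). Akt1s1, the Akt substrate PRAS40 that restrains mTOR complex 1, stood at 8.30 ± 0.13 (SD, n = 6) on low fat and 7.93 ± 0.09 on high fat, a difference of -0.37 ± 0.07 (SE, limma adjusted p = 0.00122). At day 28 it stood at 8.13 ± 0.10 and 8.14 ± 0.13, and the difference between days, 0.38 ± 0.10, was not called (limma adjusted p = 0.0547). Tsc1, a part of the complex that holds mTOR in check, fell from 5.17 ± 0.05 to 4.97 ± 0.10 at day 3 (limma adjusted p = 0.0252) and had a difference between days of 0.35 ± 0.08 (limma adjusted p = 0.0352). Eif4ebp1, a repressor of translation released by mTOR, was the one gene of the 32 called lower at both days, by -0.38 ± 0.12 and -0.43 ± 0.12 (limma adjusted p = 0.0329 and 0.0172).

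Of 17 receptor and adaptor genes, 6 were tested. Limma called 1 of 6 at day 3 (14.9% of all genes tested were) and 1 of 6 at day 28 (12.5%). Grb2, which links receptors to Ras, was lower at day 3 (-0.46 ± 0.13, limma adjusted p = 0.0170), and Gab1, a docking protein, was higher at day 28 (0.40 ± 0.13, limma adjusted p = 0.0377). Of 17 phosphoinositide kinases and phosphatases, 5 were tested. Limma called none at day 3, at day 28 or between days, against 14.9%, 12.5% and 1.38% of all genes. At an unadjusted p under 0.05 there was 1 at day 28 and 0 in the other 2 comparisons. Of 20 negative regulators, 11 were tested. At day 3 limma called 0 of 11 (14.9% of all genes tested were), with 4 at an unadjusted p under 0.05. At day 28 it called 3 of 11, against 12.5% of all genes. At day 28 Trib2, a pseudokinase of a family that binds Akt, was higher (0.55 ± 0.16, limma adjusted p = 0.0294), as was Prkcq, protein kinase C theta (0.27 ± 0.09, limma adjusted p = 0.0364). Prkcd, protein kinase C delta, was lower, from 5.96 ± 0.45 to 4.67 ± 0.46 (-1.29 ± 0.31, limma adjusted p = 0.00625).

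Of these 10 calls, limma lost the 9 in a diet comparison when the slow fibre mean was a term of the fit, which widened the standard errors of the diet comparisons. At day 3 the changes of Akt1s1 (-0.48 ± 0.12, limma adjusted p = 0.0922), Grb2 (-0.76 ± 0.22, 0.155) and Tsc1 (-0.25 ± 0.10, 0.324) were larger with that term than without it, and that of Eif4ebp1 was smaller (-0.23 ± 0.21, 0.697). At day 28 Gab1 stood at 0.54, Eif4ebp1 at -0.30, Prkcq at 0.07 and Prkcd at -0.65 with it, and Trib2 turned to -0.06. With the adipocyte mean, which was lower on high fat at day 28 and left 31 of 5793 genes called there, limma lost the 5 calls of day 28, Eif4ebp1 at day 3 and the Tsc1 difference between days, and Gab1 turned to -0.06.

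Without the 2 arrays of high beta-actin 3′ to 5′ ratio, a sign of RNA quality, limma lost Gab1 (0.30), Eif4ebp1 (-0.36), Trib2 (0.53) and Prkcq (0.25) at day 28 and the Tsc1 difference (0.36). These arrays, high fat day 3 replicate 4 and low fat day 28 replicate 5, had log2 ratios of 0.37 and 0.36, and the next highest was 0.25. They lay over 2 median absolute deviations above the median, and arrays of low ratio, down to -0.19, were kept. Whether their RNA was poorer was not tested. With no filter on low values it lost Tsc1 and Eif4ebp1 at day 3, Gab1 and Prkcq at day 28 and the Tsc1 difference. With only the arrays compared in the fit it lost Grb2, Tsc1 and Eif4ebp1 at day 3 and Gab1 at day 28. Array weights lost Eif4ebp1 at day 3 and Trib2, and a trended, robust moderation lost Tsc1 at day 3 and its difference between days. With 1 of 24 arrays left out, Grb2, Akt1s1 and Prkcd stayed called each time, and Prkcq and the Tsc1 difference were lost most often, in 8 fits each.

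**Figure D5:**
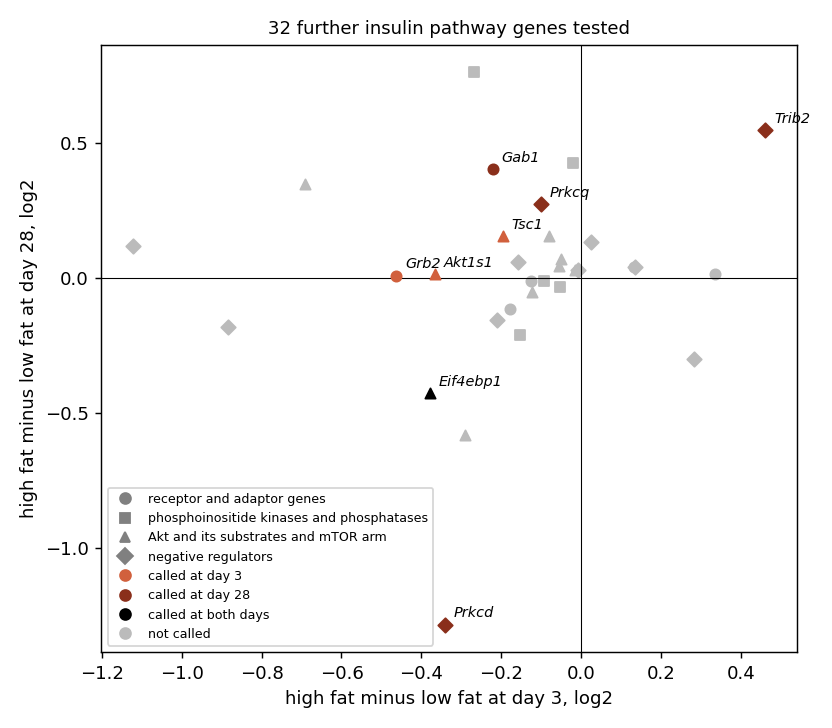
Log2 difference of high fat minus low fat at day 3 (horizontal) and at day 28 (vertical) for the 32 further pathway genes tested, with shape by list and colour by the comparison that called them. The 4 genes called at day 3 (Grb2, Akt1s1, Tsc1 and Eif4ebp1) lie left of 0, and Eif4ebp1 alone is called at both days; the days use separate mice.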

How the data were processed

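The authors deposited 1 intensity per probe set and mouse on a linear scale, computed with GCRMA per the submitters' processing notes (in a version not given in the sources used here). GCRMA corrects background from probe sequence and normalizes the arrays, so low values depend on that correction. The labels name a genomic DNA removal step for every array but 1 (replicate 1 of low fat day 3). Log2 was taken with no offset. Genes were named by the platform annotation, with the brightest probe set where a gene had several. Group means were fitted over all 24 arrays and all 5793 genes tested with limma 3.58.1 in R 4.3.3 (lmFit, eBayes, 20 residual degrees of freedom), two-sided, and p-values were adjusted over those genes. The fit was tested on simulated data. Members below the filter were compared by exact permutation (924 splits), and correlations by 100000 permutations (scipy 1.17.1). Errors are SE of the fit for changes and SD for levels. The number of arrays limits the precision. Named were all members, the further pathway genes called in a diet comparison or between days, and the 3 genes most correlated with each member called. Members and lists were chosen with earlier results of these data known, and tests within arrays and with slow fibre content were added after the data were seen. The settings varied were the offset, the filter, the normalization, the arrays in the fit, array weights, moderation, the replicate block, marker means as terms, the probe set rule and each array left out.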

Additional observations from a re-analysis of the deposited data

Results flagged for a closer look

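The diet effect on Pik3ip1 differed between the days by 1.26 (log2, limma adjusted p = 0.0249), and that on Akt2 by 0.40 (limma adjusted p = 0.0286), both by a test of the difference itself. Of 36 groups of 6 arrays (9 members in 4 groups), 1 held an array far from the others. Ptpn1 stood at 5.87 in high fat day 28 replicate 6, with the next lowest mouse of that group at 6.43. Chance sets apart about 1 in 20 such groups. High fat day 28 replicate 6 was also the lowest of its group for Pik3r1 (3.68), Akt1 (5.44) and Akt2 (7.90), which were not flagged. It was not the lowest for the other members with a probe set.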

How the results depend on the processing

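At day 3 the members called stayed at 3 of 7 under 11 of 12 other settings and with any 1 of 24 arrays left out (3 to 3), and fell to 0 when the slow fibre mean was a term of the fit. At day 28 the count of 0 became 1 with quantile normalization (Grb10, 0.36) and 1 with only the arrays compared (Grb14, 0.42), and ran from 0 to 2 with 1 array left out. For the difference between days the count of 2 became 0 with no filter on low values (Pik3ip1 adjusted p = 0.0524, Akt2 0.0700, over 14754 genes), 0 with the adipocyte mean as a covariate and 1 without the 2 arrays of high beta-actin 3′ to 5′ ratio (Akt2 adjusted p = 0.0588), and ran from 0 to 3 with 1 array left out. From day 3 to day 28 on low fat the count of 1 became 2 with quantile normalization, array weights or the slow fibre mean (Grb10 joined each time), 0 with no filter, only the arrays compared, the adipocyte mean or without those 2 arrays, and ran from 0 to 2 with 1 array left out. On high fat the count of 0 became 1 with array weights (Akt2, 0.25, adjusted p = 0.0240) and ran from 0 to 0. In the comparison that called it, no member changed sign under these settings. Among diet differences not called, a term for slow fibre markers turned the day 28 values to -0.27 for Grb14, 0.03 for Akt2 and 0.14 for Ptpn1, and with the adipocyte mean to 0.02 for Akt2 and 0.05 for Akt1. Without low fat day 3 replicate 6, Ptpn1 at day 3 turned to -0.11. All p-values are limma's. Causes were not tested. Replicate numbers are shared between groups, but the mice differ, so the numbers were not taken as pairs. Deviations of same-numbered arrays correlated from -0.38 to 0.54, and 7 of 24 arrays correlated best with their own number. What chance would give was not computed, so structure shared by number was not tested. With the replicate number as a block the counts of members called were 3, 0, 2, 1 and 0, as without it, and over all genes the calls for the difference between days went from 80 to 176 and those for time on low fat from 20 to 32. The fit with only the arrays compared was not run for the difference between days, which needs all 4 groups. Low signal limits Insr and Irs2, which the fit did not include.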
